A study of Mus musculus with 6 samples.

Results

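Genes of calcium, calmodulin kinase and protein kinase C (PKC) signaling were examined in the suprachiasmatic nucleus (SCN), the hypothalamic seat of the circadian clock, at the end of a light pulse. They were chosen by a rule on gene symbols, with earlier results of these data known. They cover the calmodulin-dependent kinases (Camk), the calcineurin subunits (Ppp3c and Ppp3r), the PKC isoforms (Prkc), the phospholipases C of the beta, delta, epsilon and gamma families (Plc), the IP3 and ryanodine receptors (Itpr and Ryr), and the calcium pumps of the endoplasmic reticulum and plasma membrane (Atp2a and Atp2b). The rule also asked for the calmodulin genes (Calm), but no probe set matched them. The rule found 74 of the 22626 probe sets on the arrays, for 39 of 12393 genes. A further probe set that carries the symbol of Ppp3r1 together with that of another gene was not used.

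The arrays hold 3 samples per group. Adult male C57BL/6 mice, 2 to 4 months old and kept in a 14:10 light/dark cycle, received either light of 2400 lux or a sham light pulse for 30 minutes, starting 1 hour after lights off, and tissue was taken 1.5 hours after lights off. The labels name no transgene or drug for either group, which differed by the light. Each array held RNA from 3 pooled mice, with 6 sections of 12 μm captured by laser microscopy from each mouse, so that the spread between arrays is a spread between pools of animals. Before hybridization, 1 ng of the RNA of a pool went through 2 rounds of linear amplification.

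Light reaches the SCN as glutamate and the peptide PACAP released from retinal axons, and calcium is the messenger that carries the signal into the cell. Calcium entering through NMDA receptors and voltage-gated channels binds calmodulin, which switches on the CaM kinases and the phosphatase calcineurin. In parallel, phospholipase C splits a membrane lipid into IP3, which opens calcium stores through its receptor, and diacylglycerol, which activates most of the PKC isoforms. Calcium pumps return the ion to the stores or to the outside. These proteins are switched by calcium and phosphate within seconds, and the arrays measured their transcripts, not their activity.

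The tissue carried SCN transcripts on all arrays, and the light response was present. Of 8 SCN markers all 8 were among the probe sets kept for testing. The immediate-early gene Fos, a transcription factor induced by neuronal activity, read 667.7, 297.6 and 370.0 (sham light pulse) against 14254, 10400 and 14457 (light pulse), so that the calcium signaling genes were measured in tissue that had responded. Light pulse replicate 3 stood apart. On that array the summed signal of the 4 measured choroid plexus markers was 110583, against 116.6 and 312.1 in the rest of its group and 192.8 to 326.4 in the sham group, and nearly all of it came from Ttr (transthyretin). Folr1, Aqp1 and Kl, the other measured markers of that list, were also highest on that array, at 147.3, 40.3 and 72.7, against at most 89.6, 24.8 and 16.4 on the others. The summed signals of markers of astrocytes, oligodendrocytes, microglia, endothelial cells and neighbouring hypothalamic neurons overlapped between the groups. For endothelial cells the overlap was narrow, at 3220.5 to 4121.5 (sham) and 2424.4 to 3280.3 (light pulse). The SCN sums also overlapped narrowly, at 60788 to 72053 (sham) and 71608 to 94252.5 (light pulse). Among tested markers the groups lay apart only for Vip and Grp (SCN list, 8 tested) and Flt1 (endothelial list, 3 tested). These were named after their values were seen. Their log2 fold changes were 0.43, 0.17 and -1.55, and none passed limma's test after adjustment. Over all tested probe sets the groups lay apart for 5.62% with the light pulse higher and for 4.46% with it lower. The part of the tissues on these marker lists in the values below was not tested. Without light pulse replicate 3 the log2 fold changes of 3 tested members changed sign, Ryr2 from 0.13 to -0.043, Ryr3 from 0.17 to -0.18 and Prkce from 0.06 to -0.12 (Ryr2 and Prkce are named after their values were seen). Such changes were not particular to that array, since leaving out any other single array also turned signs. Among them were Ppp3cb, Plce1 and Prkce without light pulse replicate 1, and Ryr2, Plce1 and Prkce without sham light pulse replicate 3. In captured tissue, fewer cells of a type and less RNA per cell cannot be told apart.

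Most of the members had signals near the floor of the arrays. A probe set was tested if the third highest of its 6 signals was among the top 10340, a cutoff at a signal of 118.2 in the arbitrary units of the array software. This cutoff was passed by 28 of the 74 member probe sets (37.8%), against 45.7% of all probe sets. They stand for 21 of the 39 genes. On all 6 arrays 20 member probe sets (27.0%) lay at or above 118.2, against 34.1% of all probe sets. On none of the arrays did 35 (47.3%) reach 118.2, against 41.3% of all probe sets. The remaining 8 tested probe sets were at or above it on 3 to 5 arrays, and for these the filter itself is open to which group was high. Signals of different probe sets depend on their oligonucleotides as well as on the transcript, so the order of genes by signal is not an order of abundance.

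**Figure D1:**
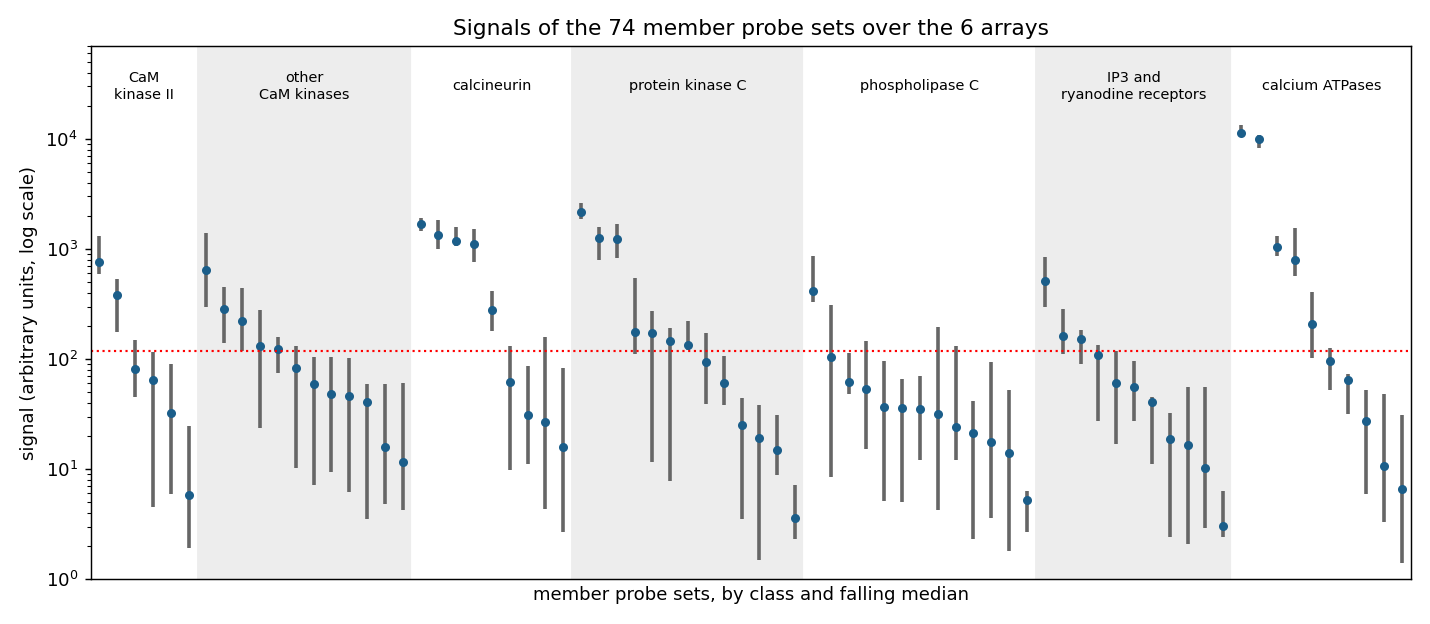
Signals in arbitrary units (log scale) of the 74 member probe sets, grouped by class. Points are medians over the 6 arrays, bars run from the lowest to the highest array, and the dotted line is the cutoff for testing, 118.2. In every class some probe sets lie below the line on all arrays, and in the phospholipase C class 1 of 13 was tested.

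The classes differed in how many of their members were measured above the cutoff. Calcineurin had 5 tested probe sets of 9, all of them at or above the cutoff on all 6 arrays, and the calcium pumps had 5 of 10, PKC 7 of 13, the CaM kinases other than CaM kinase II 5 of 12, CaM kinase II 2 of 6 and the IP3 and ryanodine receptors 3 of 11. Of the phospholipase C probe sets 8 of 13 stayed below the cutoff on every array. Among 18 genes with no tested probe set were Camk2a, the alpha subunit of CaM kinase II that is abundant in forebrain, with no signal above 24.7, and Camk4, the nuclear CaM kinase that phosphorylates CREB, with none above 103.4. The PKC alpha gene Prkca reached 171.1 at most, and Plcb4, a phospholipase C driven by Gq proteins, reached 65.4. Plcg1 and the skeletal muscle ryanodine receptor Ryr1 each had no signal above 6.3. A signal below the cutoff does not show that a transcript is absent, since the probe sets may also hybridize poorly.

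No member passed the test of a difference between light pulse and sham light pulse. Limma called 0 of the 28 tested member probe sets at an adjusted p under 0.05, where 0.0677% of all tested probe sets were called, and the adjusted p of the members ran from 0.960 to 0.995. At an unadjusted p under 0.05 limma gave 3 of the 28, for Atp2b2, Camkk2 and Prkcq, against 4.31% of all tested probe sets, and the Cyber-T test gave 0 after adjustment, against 0.0484%, and 3 before it, against 4.26%. The fitted difference was larger than 2-fold for 4 of the 28, against 5.19% of all tested probe sets. These were probe sets of Camk1, Prkcq, Prkcz and Atp2b2, each below the cutoff on at least 1 array, and 2 of them pointed up and 2 down. Their signals ran from 23.4 to 281.1, 7.8 to 190.4, 110.7 to 548.8 and 102.9 to 409.9, in that order. The median log2 fold change of the members was 0.09, and that of all tested probe sets was 0.00. The sign of the members' median was not stable: it was -0.10 without light pulse replicate 3, -0.06 without sham light pulse replicate 1 and -0.08 without sham light pulse replicate 3. The light pulse mean was the higher one for 15 of the 28, against 50.1% of all tested probe sets.

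The 3 arrays per group bounded the size of change for some members and not for others. For 12 of the 28 the 95% confidence interval of the log2 fold change lay wholly between -1 and 1, that is within 2-fold, and this held for 42.5% of all tested probe sets. With 1 array left out the count was 8 to 10, the lowest without light pulse replicate 3, sham light pulse replicate 1 or sham light pulse replicate 3. The 12 were the 5 of calcineurin, 3 of PKC, 3 of the calcium pumps and the single one of phospholipase C. None of the 10 probe sets of the CaM kinases and the calcium release channels was bounded in this way. The median spread within a group was 0.43 on the log2 scale for the members and 0.43 for all tested probe sets. The median half-width of the 95% confidence interval was 0.86 for the members and 0.78 for all tested probe sets, so the members' intervals were somewhat wider.

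**Figure D2:**
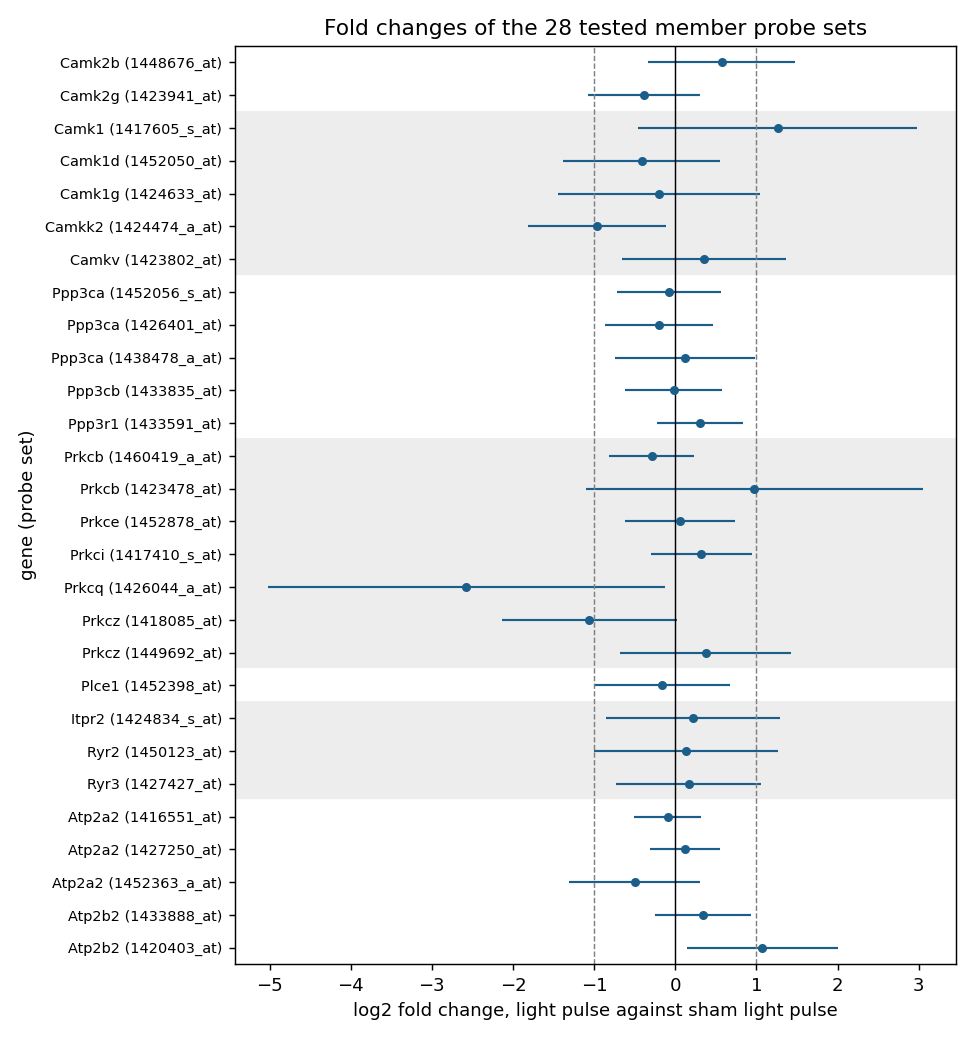
Log2 fold changes of the 28 tested member probe sets between light pulse and sham light pulse, from limma, with 95% confidence intervals as bars, grouped by class from CaM kinase II at the top to the calcium pumps at the bottom. Dashed lines mark 2-fold in either direction; 12 intervals lie within them, and the 3 that exclude 0 before adjustment are those of Camkk2, Prkcq and a weaker probe set of Atp2b2.

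Among the CaM kinases, Camkk2 had the smallest unadjusted p. It encodes a kinase that activates the CaM kinases I and IV as well as AMP kinase. The sham arrays read 1402, 1014 and 581.9 and the light pulse arrays 522.3, 299.1 and 718.6. The groups overlapped only through the lowest sham and the highest light pulse array. The log2 fold change was -0.96 (standard error 0.39, 95% confidence interval -1.81 to -0.11, unadjusted p = 0.0295, adjusted p = 0.960 from limma). It shrank to -0.62 without light pulse replicate 2, and the 2 other Camkk2 probe sets lay under the cutoff on all or nearly all arrays, with signals of 10.2 to 130.9 and 6.2 to 102.8.

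The CaM kinase II genes that were tested had opposite signs. CaM kinase II is the multi-subunit kinase that holds a memory of a calcium pulse by phosphorylating itself. Camk2b, its beta subunit, read 272.6, 175.5 and 484.5 on the sham arrays and 529.9, 520.1 and 276.2 on those of the light pulse. The lowest light pulse array lay among the sham arrays, and the log2 fold change was 0.57 (standard error 0.42). Camk2g, the gamma subunit, had signals of 646.0, 892.8 and 1304 (sham) and 681.0, 839.6 and 592.8 (light pulse), and a fitted log2 fold change of -0.38 (standard error 0.32). Both intervals crossed 0. Camk1d, a CaM kinase I isoform, had signals of 404.2, 229.8 and 338.5 (sham) and 453.2, 139.8 and 210.1 (light pulse), so that the highest and the lowest array were both in the light pulse group, and its log2 fold change was -0.41 (standard error 0.45).

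All 5 tested calcineurin probe sets had intervals within 2-fold. Calcineurin is the calmodulin-dependent phosphatase that dephosphorylates the NFAT transcription factors, and it is made of a catalytic and a regulatory subunit. Ppp3r1, the regulatory subunit B that binds calcium, read 1463, 1452.5 and 1569 on the sham arrays and 1788.5, 1842 and 1898 on those of the light pulse. The lowest light pulse signal exceeded the highest sham signal, with means of 1495 ± 64.4 and 1843 ± 54.6 (SD, n = 3 each). This is a ratio of 1.23 (95% confidence interval 0.854 to 1.78), or a log2 fold change of 0.30 (standard error 0.25, adjusted p = 0.960 from limma). The SDs within each group were small for this probe set, while limma draws its standard error toward that of probe sets of similar signal, and by limma's test the difference did not pass. With an array left out the log2 fold change of Ppp3r1 ran from 0.28 to 0.34, and it was 0.36 with quantile normalization.

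The catalytic subunits lay close to no difference. Ppp3ca, catalytic subunit A alpha, had 3 tested probe sets with log2 fold changes of -0.08, -0.20 and 0.12, each with an interval within 2-fold. At the one with the highest signal the arrays read 1241, 1825 and 1252 (sham) and 1431, 988.9 and 1700 (light pulse), and the groups overlapped. Ppp3cb, subunit A beta, named here because its promoter is described below, had a log2 fold change of -0.02 (95% confidence interval -0.61 to 0.58). The testis-enriched subunit Ppp3cc had no tested probe set and reached 158.2 on 1 array. No calcineurin probe set was called under any of the 13 alternatives.

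**Figure D3:**
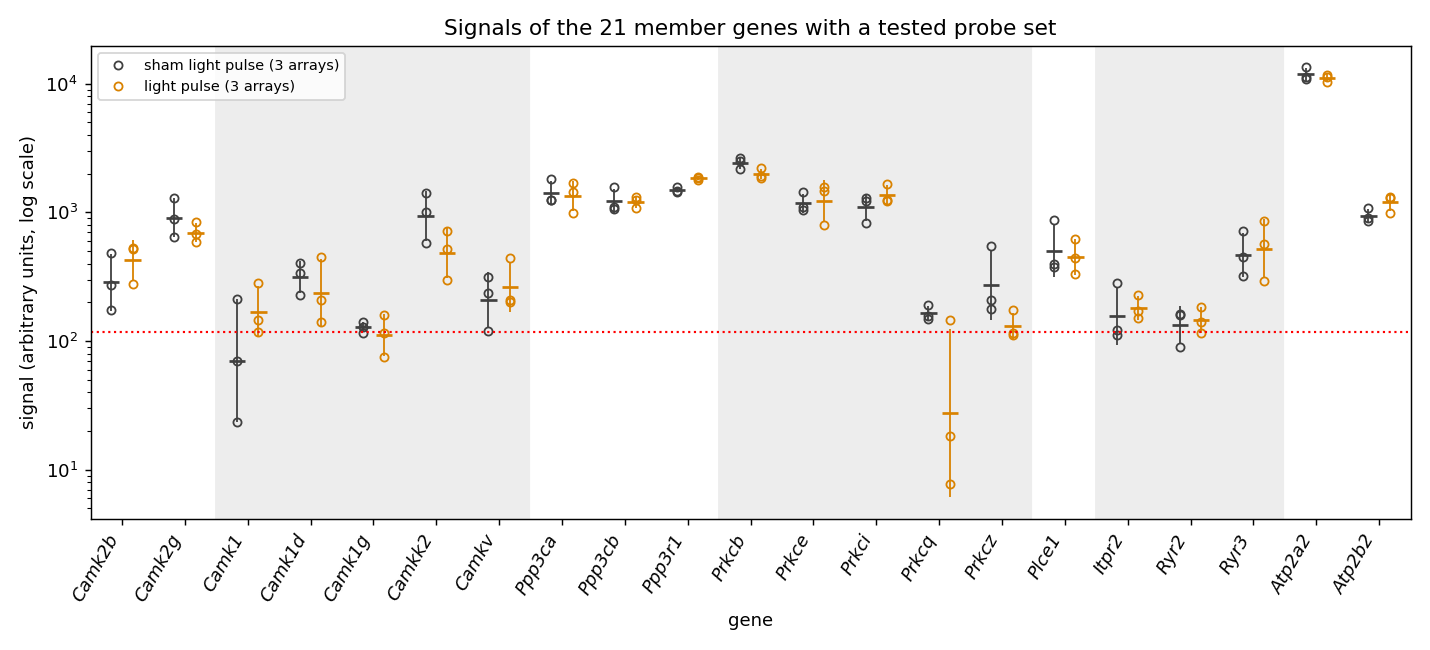
Signals in arbitrary units (log scale) of the 21 member genes with a tested probe set, each by its probe set of highest mean log2 signal, with 1 point per array (3 sham light pulse, 3 light pulse). Short horizontal lines give the mean of the log2 signals and upright lines their SD, shading marks the classes, and the dotted line is the cutoff of 118.2. The groups lie apart for Ppp3r1 (light pulse higher), Prkcq and Prkcz (light pulse lower), and overlap for the other 18 genes.

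Of the PKC isoforms, Prkcb had a mean signal of 2434 ± 242 after the sham light pulse and 1992 ± 181 after the light pulse (SD, n = 3 each) at its main probe set. PKC beta is a classical isoform, activated by calcium together with diacylglycerol. The arrays read 2166, 2498 and 2637.5 (sham) and 1926, 2196 and 1854 (light pulse), overlapping by 1 array of each group, and the log2 fold change was -0.29 (95% confidence interval -0.81 to 0.24). A second Prkcb probe set of lower signal pointed the other way, with 0.97 (standard error 0.96), and sham light pulse replicate 3, at 11.5 against 129.1 to 270.9 elsewhere, decided that sign: without it the value was -0.44. Prkci, an atypical isoform that needs neither calcium nor diacylglycerol, had signals of 1229, 829.3 and 1295 (sham) and 1254, 1670 and 1231 (light pulse). Its log2 fold change of 0.32 (standard error 0.29) did not pass the test, and its probe set is of a kind whose probes may match transcripts of more than 1 gene, as are those of Camk1, Itpr2 and the strongest of Ppp3ca.

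The light pulse signals of Prkcq and of 1 Prkcz probe set lay wholly below the sham signals, with light pulse arrays below the cutoff in both. Prkcq encodes PKC theta, an isoform known from T cells and muscle. It read 156.9, 148.1 and 190.4 on the sham arrays and 18.4, 7.8 and 145.2 on those of the light pulse, so that 1 light pulse array nearly reached the sham arrays and the others were far below the cutoff. The log2 fold change was -2.58 (95% confidence interval -5.02 to -0.13, unadjusted p = 0.0405, adjusted p = 0.960 from limma). With an offset of 50 added before the log2 it was -1.22, without light pulse replicate 2 it was -1.67, and without light pulse replicate 3 it was -3.78. Prkcz encodes PKC zeta, another atypical isoform. It had signals of 206.8, 176.2 and 548.8 (sham) and 172.9, 110.7 and 114.9 (light pulse), and the nearest arrays of the groups differed by 176.2 against 172.9. The fitted log2 fold change was -1.06 (standard error 0.50, limma's adjusted p = 0.960), and -0.55 without sham light pulse replicate 3. A second Prkcz probe set gave 0.37 (standard error 0.49), with signals of 138.9, 127.7 and 120.5 (sham) and 123.6, 170.1 and 220.9 (light pulse), so the probe sets of this gene disagree in sign. Prkcq and the first Prkcz probe set were at or above the cutoff on all 3 sham arrays and on 1 light pulse array. The second Prkcz probe set was so on all 6 arrays.

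Over the 28 tested probe sets, the groups did not overlap for 2 with the light pulse higher (Ppp3r1 and the weaker Atp2b2 probe set) and for 2 with the light pulse lower (Prkcq and the Prkcz probe set of higher signal). The filter kept both of the lower ones through their sham signals, with 1 light pulse array at or above the cutoff each. Their count is therefore not independent of the filter. Among all tested probe sets 5.62% were higher and 4.46% lower in this way. The members' share in each direction was 7.14%, from 2 probe sets each. With an array left out, groups of 3 and 2 lie apart more often, in 18.0% to 21.5% of all tested probe sets, and the count for the members rose from 4 to between 4 and 10, with 8 without light pulse replicate 1, 7 without light pulse replicate 3, 7 without sham light pulse replicate 1 and 10 without sham light pulse replicate 3.

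Only 1 phospholipase C was tested. Plce1, phospholipase C epsilon, which is activated by Ras family GTPases, read 394.1, 373.0 and 867.5 on the sham arrays and 330.0, 443.2 and 624.2 on those of the light pulse. The groups overlapped, and the log2 fold change was -0.16 (95% confidence interval -0.99 to 0.67). Its sign turned without sham light pulse replicate 3 (0.23) and without light pulse replicate 1 (0.06). The beta isoforms that Gq-coupled receptors use, Plcb1 to Plcb4, had 8 probe sets and none was tested, with signals of at most 96.7, 130.4, 112.3 and 65.4 for the 4 genes in that order. Of 13 phospholipase C probe sets the highest signal of an untested one was 311.3, on light pulse replicate 3, for Plcg2, an isoform of immune cells, which read 160.6, 28.2 and 8.5 (sham) and 92.8, 116.3 and 311.3 (light pulse).

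The channels that release stored calcium showed overlapping groups. Ryr3, a ryanodine receptor found in brain, had signals of 319.7, 447.3 and 711.0 (sham) and 572.3, 294.6 and 850.4 (light pulse), with the lowest and the highest array both in the light pulse group. The log2 fold change was 0.17 (standard error 0.42), and turned to -0.18 without light pulse replicate 3 and to -0.11 without sham light pulse replicate 1. Itpr2, an IP3 receptor known from glia and other non-neuronal cells, had signals of 111.0, 121.6 and 282.5 (sham) and 171.6, 228.7 and 151.3 (light pulse) at its tested probe set, and its fitted log2 fold change was 0.21 (standard error 0.50). The other 4 Itpr2 probe sets were not tested. Itpr3 had no signal above 45.2.

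The narrowest intervals of the members were those of a calcium pump. Atp2a2 encodes SERCA2, the pump that refills the endoplasmic reticulum. At its main probe set the arrays read 11258, 10897 and 13382 (sham) and 11220, 10325 and 11696 (light pulse), which gives 11845 ± 1342 and 11080 ± 696 (SD, n = 3 each). The ratio was 0.938 (95% confidence interval 0.705 to 1.25). A second probe set, with signals from 8245 to 10893, gave 1.09 (0.807 to 1.46), with the groups overlapping. The third read 567.3, 1120 and 1535 (sham) and 618.7, 572.9 and 970.1 (light pulse), at a fitted log2 fold change of -0.50 (standard error 0.38), and the fourth was not tested.

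Atp2b2 encodes PMCA2, a plasma membrane pump of neurons that extrudes calcium quickly. Both of its tested probe sets had the higher mean after the light pulse. The stronger read 900.1, 856.6 and 1084 (sham) and 1322, 1294.5 and 997.5 (light pulse), overlapping by 1 array of each group, and a fitted log2 fold change of 0.34 (standard error 0.27, 95% confidence interval -0.25 to 0.94). The weaker read 135.2, 188.5 and 102.9 (sham) and 409.9, 257.1 and 231.1 (light pulse), and the groups lay apart. Its log2 fold change was 1.07 (standard error 0.43, 95% confidence interval 0.14 to 2.00, unadjusted p = 0.0274, adjusted p = 0.960 from limma), and it ran from 0.82 to 1.30 over the alternatives. The third Atp2b2 probe set read between 1.4 and 31.0. Atp2a1 and Atp2a3, the SERCA pumps of fast muscle and of non-muscle cells, had no tested probe set and reached 52.3 and 125.8.

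Other genes of the pathway, listed by their place around the members, were not called either. Of 67 such genes 49 had a probe set and 29 a tested one, and limma called 0 higher and 0 lower at an adjusted p under 0.05, where 0.0677% of all tested probe sets were called. At an unadjusted p under 0.05 there was 1 of the 29, against 4.31% of all tested probe sets, and Cyber-T called 0 after adjustment, against 0.0484%. Their median log2 fold change was 0.01 and 18 of 29 lay above 0, against 50.1%. The groups lay apart for 0 of the 29, against 5.62% higher and 4.46% lower over the array. The one with the smallest unadjusted p was Dgkz, a kinase that removes diacylglycerol, with signals of 1716, 1115 and 1391 (sham) and 2649, 3110 and 1556 (light pulse). Only light pulse replicate 3 fell within the sham range, and the log2 fold change was 0.76 (standard error 0.31, limma's adjusted p = 0.960). Next came Gap43, a calmodulin-binding PKC substrate of growing axons, with -0.62 (standard error 0.33), and Fkbp1a, the immunophilin through which FK506 blocks calcineurin and which also binds ryanodine receptors, with 0.41 (standard error 0.24).

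By group, the tested calcineurin regulators and targets numbered 6, with a median log2 fold change of 0.01. Rcan1, an inhibitor of calcineurin whose gene is itself a target of the calcineurin pathway, had signals of 2408, 1960 and 2251 (sham) and 2440, 2235 and 1745 (light pulse), and its log2 fold change was -0.05 (95% confidence interval -0.60 to 0.49). Of the calmodulin-binding and PKC substrate proteins 6 were tested, with a median of -0.00, and of the diacylglycerol and inositol enzymes also 6, with a median of 0.15. The smaller groups had medians of -0.59 for 2 Ras activators, 0.34 for 1 glutamate receptor subunit, 0.22 for 1 G protein, 0.03 for 4 transcription factors that calcium signals reach and 0.01 for 3 store-operated and exchanger routes. Rcan1 is named after its value was seen.

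The promoters of the members were searched for the cAMP response element (CRE) TGACGTCA, the site that the transcription factor CREB binds after calcium or cAMP signals, and for its half-sites TGACG and CGTCA, which the full element contains. Each element was searched on both strands, the CRE being its own reverse complement. Promoter sequences of 300 bases, from 250 before to 50 after the transcript start, came from RefSeq (GRCm38.p6) for 30 of the 39 genes, in 38 windows. The CRE was found in 1 of the 38 windows (2.63%) and in 1.79% of all 32851. A half-site was found in 5 of the 38 (13.2%), the window with the CRE among them, against 20.8% of all. All 5 were among the 21 windows of genes with a tested probe set, a share of 23.8%. The matches for genes with a tested probe set follow, each as 30 bases in the direction of transcription with the match in capitals, beside the 2 half-sites in the window of Fos, the gene of the light response check. They are shown because the CRE is one of the elements at which calcium signals are known to reach promoters.
Prkcz, chr4:155345778-155345807, minus strand, CRE starting 7 bases before the transcript start: ttgtttccgtgTGACGTCAgctcctccgta
Prkcz, chr4:155344755-155344784, minus strand, half-site starting 23 bases before another transcript start: cacgaaaggctcTGACGtgcacagcgtgct
Ppp3r1, chr11:17159102-17159131, plus strand, half-site starting 184 bases before the start: cggctctcccaaCGTCAagacgtctgcccc
Camk1, chr6:113344090-113344119, minus strand, half-site starting 185 bases before the start: cttgtctcctgcTGACGaccaaagggcaca
Ppp3cb, chr14:20546557-20546586, minus strand, half-site starting 1 base before the start: acgcgcgatgcaTGACGgtcttagcccctc
Fos, chr12:85473749-85473778, plus strand, half-site starting 129 bases before the start: ggggcgtagagtTGACGacagagcgcccgc
Fos, chr12:85473812-85473841, plus strand, half-site starting 66 bases before the start: agttccgcccagTGACGtaggaagtccatc

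The genes with a match did not share a direction on the arrays. Prkcz, the one member with a full CRE in its window, had log2 fold changes of -1.06 and 0.37 at its probe sets, Ppp3r1 had 0.30 and Ppp3cb -0.02. Camk1, a CaM kinase I gene named here for its promoter, had signals of 70.4, 23.4 and 211.4 (sham) and 116.8, 281.1 and 146.8 (light pulse) and a fitted log2 fold change of 1.26 (standard error 0.80), from a probe set at or above the cutoff on 3 arrays. That value was 0.47 without sham light pulse replicate 2 and 2.06 without sham light pulse replicate 3. Fos, with half-sites but no exact CRE in this window, rose by a log2 fold change of 4.94 (standard error 0.31, limma's adjusted p = 3.35e-06). The search here took exact letters in a short window only. The paper searched a longer stretch before the start codon with sequence matrices, and it lists conserved CRE elements for Fos. A window without an exact match here is therefore not a promoter without a CRE by the paper's measure. A match of these letters is a description and no evidence of binding.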

How the data were processed

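The signal intensity of each probe set of Affymetrix Mouse 430A 2.0 arrays was deposited by the authors on a linear scale. It was made with the Microarray Suite algorithm (MAS5, per the labels, without a version) and scaled per array. The table used had no present calls, so in place of the paper's filter on these the 10340 probe sets with the highest third-ranked signal were kept. Groups and replicate numbers came from the sample titles. The labels describe an animal in 1 field and a pool of 3 mice in another, and the latter, which the paper shares, is used here. Nothing in the sources used here says if 1 mouse served several pools, and the p-values rest on the spread from pool to pool.

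Symbols came from the platform's annotation of 20380 probe sets with 1 symbol, 691 with several and 1555 with none. Log2 signals without offset were fitted with limma 3.58.1 in R 4.3.3 (eBayes with intensity trend, two-sided, Benjamini-Hochberg over all kept probe sets, threshold 0.05). A gene is represented by its kept probe set of highest mean log2 signal, and values of probe sets that were not kept are signals only. Named genes are, in each class, the 2 with the highest signal, the one with the smallest p and those with groups apart, and, for genes around the pathway, the 3 with the smallest p. Of the markers, lists for the SCN, astrocytes, oligodendrocytes, microglia, endothelial cells, choroid plexus and neighbouring hypothalamic neurons were summed. Members and lists were chosen with earlier results of these data known. Cyber-T, the test in the paper, was rewritten from its description (window 101, prior weight 10), and both tests were tested on simulated data. The other alternatives were no filter, an offset of 50, quantile normalization, a common 75th percentile, no trend, the replicate number as a block, and leaving out each array. The precision is set by the 3 arrays of a group, since signals carry no counts.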

Additional observations from a re-analysis of the deposited data

How the results depend on the processing

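Under all 13 alternatives 0 members and 0 genes around the pathway were called, and the lowest adjusted p of a tested member was 0.889, without sham light pulse replicate 1. Under 4 alternatives, no filter, no trend, Cyber-T and the replicate block, a fold change cannot move, and of the 135 values of the 15 named genes under the others 128 kept their direction. The 7 that turned all came from leaving out 1 array. Itpr2 turned to -0.034 without sham light pulse replicate 1 and ran from there to 0.64 with an array left out, Plce1 turned to 0.06 and 0.23 in a range from -0.40, Ppp3ca to 0.14 and 0.10 in a range from -0.25, and Ryr3 to -0.18 and -0.11 in a range up to 0.58. The members with groups apart numbered 10 of 74 with no filter, where 10.3% of all probe sets did, against 4 of 28 and 10.1%, and 4 to 10 with an array left out, where 18.0% to 21.5% did. The number with an interval within 2-fold ran from 8 to 16 of the 28, and was 11 of 74 with no filter. The median log2 fold change of the 28 ran from -0.10 to 0.11, and that of all 74 with no filter was 0.13. With the replicate block, which shares only numbers (correlations of same-numbered deviations of 0.096, -0.19 and -0.13), the adjusted p of the members started at 0.994, 4 members had groups apart, 11 had an interval within 2-fold and 6 probe sets of the whole array were called, against 7. Signals under the cutoff of 118.2 limit what can be said of 46 member probe sets.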
